A study of Labeotropheus fuelleborni x Mchenga conophoros and Petrotilapia nigra x Mchenga conophoros and Petrotilapia nigra x Aulonocara baenschi with 10 samples.

Results

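The brains of 2 lone males were set against those of 4 social rock males to ask what the presence of a second male was accompanied by in the brain of a male that courts over rock. All 6 fish were F1 hybrid males of a rock-dwelling father and a sand-dwelling mother from Lake Malawi, they courted hybrid females over the rock side of the tank, and whole brain was taken during courtship. The 6 libraries, 2 lone and 4 social rock, were chosen by their labels from 10 in the series. The other 4 were social sand brothers of the social rock males. They entered the low-count filter, the scaling and the estimate of the spread, and are quoted where a locus needs them. The lone males had no male rival but had several females of their own cross. Lone male 4 came from Labeotropheus fuelleborni x Mchenga conophoros and lone male 5 from Maylandia zebra x Mchenga conophoros. The social rock males each shared the tank with a brother. They came from Maylandia zebra x Tramitichromis intermedius (brood 1), Petrotilapia nigra x Aulonocara baenschi (brood 2), Petrotilapia nigra x Mchenga conophoros (brood 3) and Labeotropheus fuelleborni x Mchenga conophoros (brood 4). Each library is 1 fish. Lone male 4 and the social rock male of brood 4 were brothers, and lone male 5 had no brother in the series. Both lone males had Mchenga conophoros mothers, as 2 of the 4 social rock males did, so company, cross and brood cannot be told apart in most of what follows.

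Males of rock-dwelling Malawi cichlids defend territories against other males. In teleosts, social signals reach the brain through sensory and hypothalamic circuits, and transcripts of transmitter release, calcium signalling and neuropeptide storage are commonly followed as readouts of neuronal state. Synaptic transmission runs in steps: active-zone scaffolds such as piccolo hold vesicles at the membrane, unc-13 proteins prime them, SNARE proteins such as SNAP25 fuse them when calcium enters, and receptors on the next cell take up the signal. Peptides travel in larger secretory granules built with granins. Astrocytes clear the transmitter, and myelin insulates the axons. A whole brain pools all of these cells, so fewer cells of a type and less RNA per cell cannot be told apart.

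The lone libraries were the shallowest of the 6. They held 375132 (lone male 4) and 457974 counts (lone male 5), against 492489 to 694114 counts in the social rock libraries (median 535122). No social rock total reached down to a lone total (p = 0.133 by a two-sided exact permutation test, which cannot go lower with 2 fish against 4). Loci with at least 1 count numbered 15827 and 15776 in lone brains, against 15483 to 16629 in social rock brains, which overlap (exact permutation p = 0.533). Thinned to 375132 counts, the number of loci with at least 10 counts was 6376 and 5695 in lone libraries, against 4436 to 6481 in social rock libraries. One library stood apart within its group. The most abundant locus took 5.14% and 10.3% of the counts in the lone libraries, against 11.6%, 16.5%, 12.6% and 0.0511% in the social rock libraries of broods 1 to 4. The social rock male of brood 4, brother of lone male 4, is the one at 0.0511%, and results that rest on it are given with and without it. The labels give no preparation batch, and the part of library preparation in that difference was not tested. Markers of neurons (snap25), astrocytes (slc1a2) and myelin (mpz) were abundant in all 6 libraries, with at least 822 CPM each, as the label whole brain implies. CPM here are counts scaled to the TMM-adjusted library total.

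Across all loci, the lone brains lay as near to social rock brains as social rock brains lay to one another. The Euclidean distance of log2 CPM over the 7733 loci tested was 80.63 ± 11.3 between lone and social rock brains (SD of 8 pairs) and 82.92 ± 12.3 among social rock brains (SD of 6 pairs). The 2 lone brains were 69.42 apart. The pairs share libraries, so these are descriptions without a test. The smallest distance of all, 61.74, was that between lone male 4 and its social rock brother. Lone male 5, from another father species and another brood, was also nearest to that fish, at 69.29. The social rock male of brood 4 lay 84.13, 101 and 91.58 from the social rock males of broods 1, 2 and 3, farther than from either lone male. Without it, the distance from lone to social rock brains was 85.68 ± 7.17 (SD of 6 pairs), and that among the remaining 3 social rock brains averaged 73.61. The order of these distances thus rests on that library. The plot of distances names every pair.

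**Figure D1:**
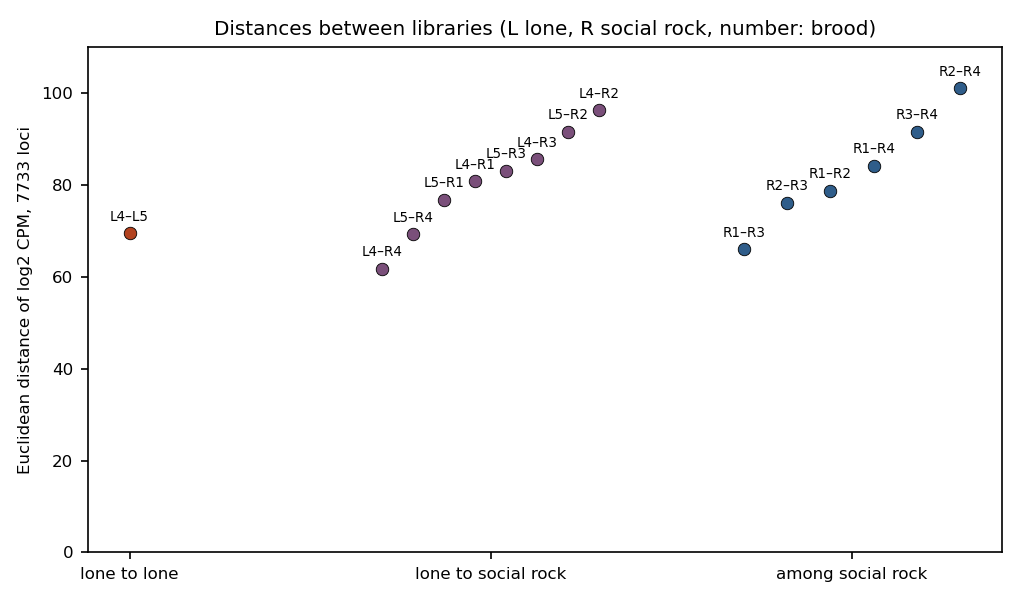
Euclidean distances of log2 CPM over 7733 loci between pairs of brain libraries (y axis), by kind of pair (x axis); L marks lone, R social rock, and the number is the brood. The pair of brothers L4 and R4 has the lowest distance, 61.74, and both lone libraries lie closer to R4 than the other social rock libraries do.

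Gene by gene, no locus was called between lone and social rock brains. Calling asked for a fold of at least 2 and, in edgeR's quasi-likelihood test, for a p under 0.05 after Benjamini-Hochberg adjustment. This gave 0 of 7733 loci (0%). DESeq2 and limma-voom also called 0. At an unadjusted p under 0.05, edgeR gave 275 loci (3.56%), 96 higher and 179 lower in lone brains, where a test with no differences would give 386.65 on average; DESeq2 gave 250 and limma-voom 524. The split of directions depended on the tool, since limma-voom put 422 of its 524 higher, and scaling to total counts alone gave 106 higher and 93 lower. That scaling moved the median log2 fold change over all loci to 0.19, against 0.05 under TMM. The precision was modest: the 95% interval of the log2 fold change reached 1.27 to each side at the median locus and 0.76 at loci of at least 128 CPM. A change of under 2-fold in either direction was bounded by the interval for 635 loci (8.21%), 511 of them among the 1318 loci of at least 128 CPM. For the rest, a difference of 2-fold or more was not excluded.

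Single libraries moved these counts. With the social rock male of brood 4 left out, edgeR still called 0 loci but gave 833 at an unadjusted p under 0.05, 341 higher and 492 lower. Without lone male 4, 9 loci were called, 8 of them higher in lone male 5, and without lone male 5 the count was 0. Fitted on the 6 libraries alone, edgeR called 4 loci, all higher in lone brains. With brood as a block, 17 loci were called, 16 higher and 1 lower; there lone male 5 has no brother to be set against, so the comparison is of lone male 4 alone with its own brood. The loci gene3343 and gene3344, described next, were among the called loci in each of the fits that gave 9, 4 and 17.

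A few loci had reads in both lone brains and almost none in social rock brains. Whether the males carry different alleles or copies of these loci was not tested, so the ratios compare these fish and cannot be assigned to company. The counts carry locus numbers, and only the 812 genes that the study's supplementary table names could be given a symbol; these loci are not among them. The locus numbered gene3343 had 54 and 112 counts in lone brains, against 0, 0, 1 and 0 in social rock brains of broods 1 to 4. Its neighbour in numbering, gene3344, had 81 and 222 counts in lone brains, against 0, 0, 6 and 0. The ratio of counts per adjusted total was 408 for gene3343 (95% counting interval 72.2 to 16200) and 124 for gene3344 (56.3 to 341), and both had an edgeR adjusted p of 0.0691. The social sand males, who also shared a tank, were divided: gene3343 had 0, 25, 25 and 0 counts and gene3344 had 0, 23, 11 and 0 counts in broods 1 to 4. Another unnamed locus had 105 and 147 counts in lone brains, against 0, 2, 0 and 0 in social rock brains, a ratio of 309 (84.8 to 2570), with an edgeR adjusted p of 0.0722. It too had reads in social sand brains of broods 2 and 3, 68 and 56 counts, and 0 in those of broods 1 and 4. One more, with 14 and 31 counts in lone brains and a single count in the social rock brain of brood 2, followed the same split, with 3 and 6 counts in social sand brains of broods 2 and 3.

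One locus was on in both lone males and off in every male that had a rival. It had 16 counts in each lone brain and 0 in all 4 social rock brains, and 0 in all 4 social sand brains. Against a floor of 3 counts over the social rock group it was at least 26.2-fold higher in lone brains, and the 95% counting interval of the ratio, which also allows for error in the lone counts, begins at 20.1. Such loci were sought by a rule of at least 10 counts in each lone library and 0 in each social rock library. It was the only locus that met the rule, and 0 loci met the reverse. The rule picked it on these same counts, so the ratio and its bounds describe them and are no test. Its edgeR adjusted p was 0.97. All intervals and floors from counts cover counting error only.

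**Figure D2:**
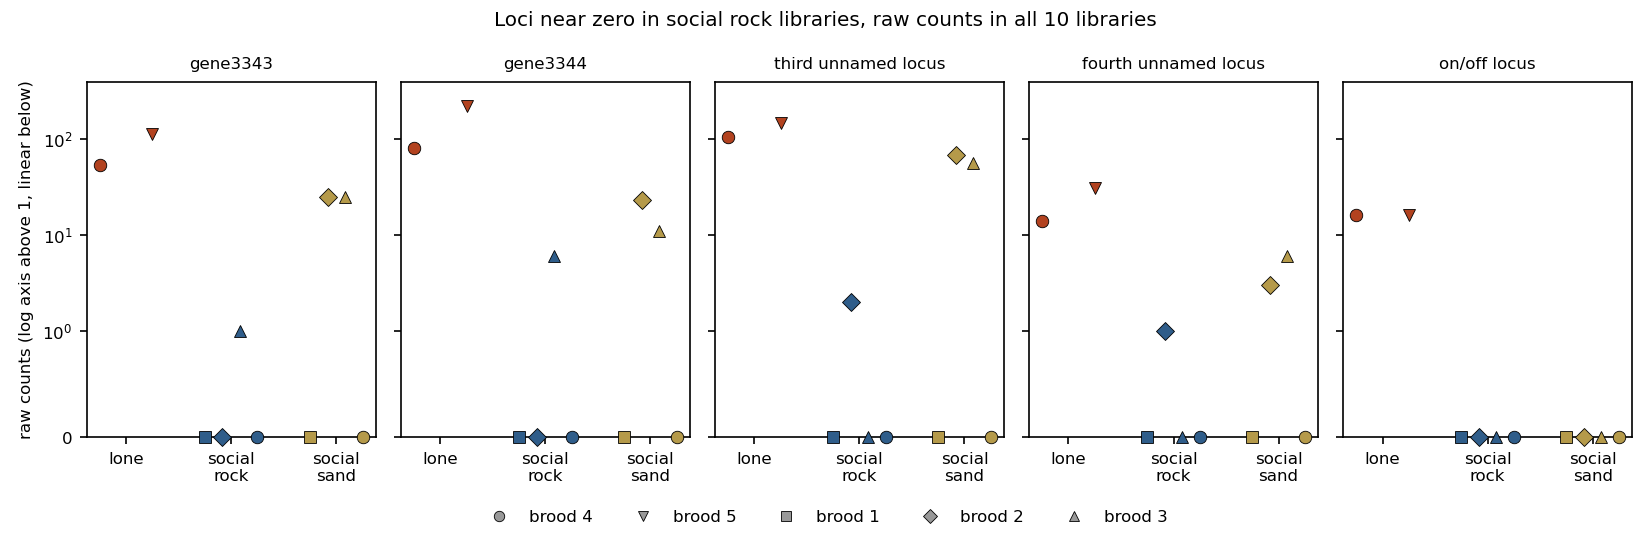
Raw counts (y axis, logarithmic above 1 and linear below) of 5 loci without a name in all 10 libraries by group (x axis), with the brood as the marker's shape. All lone counts are at 14 or above, social rock counts are at 6 or below, and 4 of the loci have reads in the social sand males of broods 2 and 3.

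In the other direction, the pair of loci with the smallest p was detected in every library. The locus gene9525 had 746.7 and 534.3 CPM in lone brains, against 3335, 1612, 1542 and 1007 CPM in social rock brains. Both lone males lay below all 4 social rock males, with a log2 fold change of -1.55 (95% interval -2.44 to -0.65). The locus gene26852 had 75.64 and 4.26 CPM in lone brains, against 217.8, 266.7, 275.8 and 109.7 CPM in social rock brains. Here lone male 5 was far below its fellow, and the log2 fold change of -2.46 became -5.63 without lone male 4 and -1.55 without lone male 5. Neither locus was called in the main fit (edgeR adjusted p = 0.97 for each). With brood as a block, the log2 fold change was -0.69 for gene9525 and -0.77 for gene26852. Within brood 4, lone male 4 stood at 0.742 times the level of its brother for gene9525 (95% counting interval 0.643 to 0.854) and at 0.69 times for gene26852 (0.433 to 1.08). For both loci the lone males lay below all 4 social rock males, so the direction between the brothers was fixed in advance and is no separate check.

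Of the genes with a name, 647 of 812 passed the low-count filter. The study had called them between social sand and social rock males on these same social rock libraries, so they are not an independent sample of the genome. None was called here. At an unadjusted p under 0.05, 20 named genes were higher and 7 lower in lone brains, 4.17% against 3.56% of all loci. Both lone libraries lay above all 4 social rock libraries for 68 named genes (10.5%) and below them for 13 (2.01%). Over all 7733 loci these shares were 7.31% above and 6.58% below. The median log2 fold change of the named genes was 0.40, with 534 of 647 (82.5%) above 0. That of all loci was 0.05, with 53.1% above 0. The counts above 0 in the gene lists that follow are to be read beside these shares.

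The size of that tilt of the named genes depended on which fish entered the fit and on how brood 4 did. The block on brood, which compares lone male 4 with its own brothers, gave a median of -0.05 with 305 of 647 named genes above 0. With only the 2 social rock males of Mchenga conophoros mothers, it was 0.15 with 392 of 604 above 0. Without the social rock male of brood 4 it was 0.67, and both lone libraries lay above the remaining 3 social rock libraries for 359 named genes (55.5%), against 23.7% of all loci. With any other social rock male left out, that share of the named genes was 11% to 12.4%. The median was then 0.385, 0.23 and 0.307 without the social rock males of broods 1, 2 and 3.

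**Figure D3:**
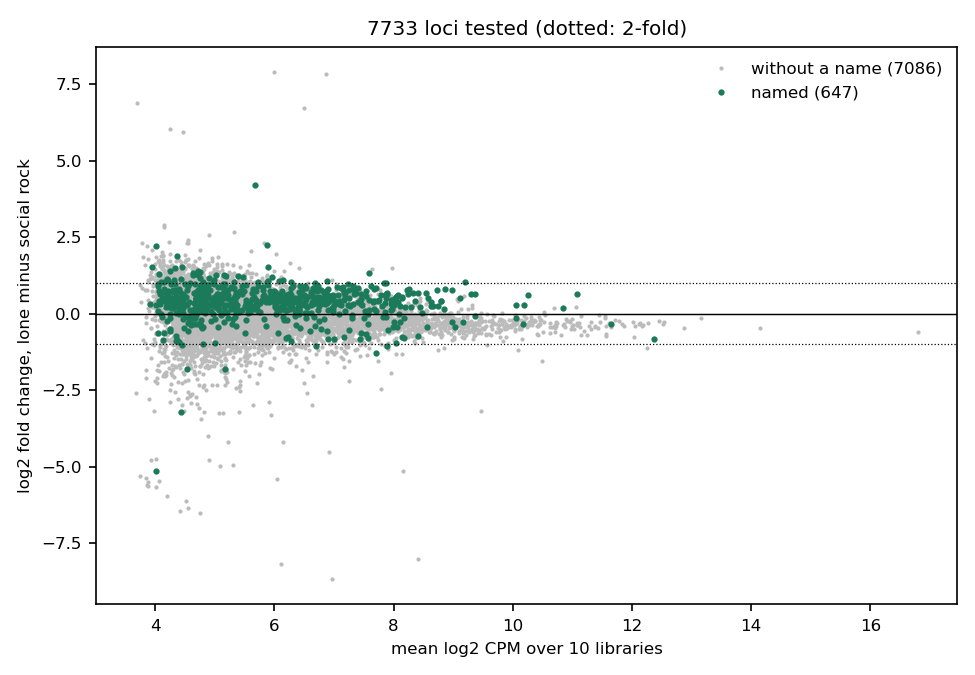
Log2 fold change of lone over social rock brains (y axis) against mean log2 CPM over all 10 libraries (x axis) for the 7733 loci tested; green points are the 647 named genes, grey points the rest, dotted lines a 2-fold difference. Most named genes lie a little above 0 (median 0.40), and no point is called.

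The named gene with the smallest p was ncf4, which in mammals encodes a cytosolic subunit of the phagocyte NADPH oxidase. It was among the most abundant named genes here. It had 1989 and 2263 CPM in lone brains, against 3942, 4802, 3797 and 2427 CPM in social rock brains of broods 1 to 4. Both lone males were below all 4 social rock males, and the brother of lone male 4 was the closest to them. The log2 fold change was -0.82 ± 0.26 (SE, edgeR adjusted p = 0.97), and -1.04 with the social rock male of brood 4 left out. Against that brother alone, lone male 4 had 0.819 times the level (95% counting interval 0.75 to 0.894).

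Other named genes with lower means in lone brains have various roles. The RNA polymerase II subunit gene polr2d had 58.56 and 40.45 CPM in lone brains, against 107, 91.15, 86.88 and 65.45 CPM in social rock brains, without overlap (-0.82 ± 0.39, SE). Cyclin H, ccnh, a subunit of the kinase that activates cyclin-dependent kinases, had 80.52 and 55.35 CPM in lone brains, against 140.3, 162, 275.8 and 77.83 CPM. Its groups overlapped through the male of brood 4, whose level was near that of its lone brother (ratio of lone male 4 to brother 1.03, counting interval 0.638 to 1.66). The gene mei1, needed in mice for meiotic double-strand breaks, was rare, with 4.88 and 6.39 CPM in lone brains and 14.76 to 23.63 CPM in social rock brains.

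The genome maintenance list split by gene. Of its 8 members, all tested, 0 were called, 4 had a log2 fold change above 0, and the median was -0.27. The gene trip13, an ATPase of the mitotic and meiotic checkpoints, had 97.6 and 95.79 CPM in lone brains, against 129.2, 270.1, 139 and 205.2 CPM in social rock brains, without overlap. That separation fixes the direction within brood 4, where lone male 4 had 0.476 times the level of its brother (95% counting interval 0.323 to 0.687). The Fanconi anemia genes of DNA crosslink repair were lower in the mean: fancb had 0 and 1 counts in lone brains, against 6, 14, 7 and 1 in social rock brains, and faap100 had 200.1 and 108.6 CPM, against 276.8, 300.4, 251.9 and 178.7 CPM. For both, the male of brood 4 stood within the lone range. The clamp-loader gene rfc1 went the other way, with 256.2 and 274.6 CPM in lone brains, against 116.3, 227.9, 154.2 and 180.4 CPM, both lone males above all 4 social rock males (0.64 ± 0.31, SE). The list's median changed sign to 0.11 in the fit on the 6 libraries alone, where 7 members were tested, and was -0.90 with the social rock male of brood 4 left out.

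The genes higher in both lone brains than in any social rock brain included calcium-binding proteins. In the calmodulin and calcium handling list, which does not hold annexin A13, 1 of 13 genes (7.69%) did so, against 7.31% of all loci. Another 1 of the 13 (7.69%) lay below every social rock brain in both lone brains, against 6.58% of all loci. LOC101468299, annexin A13, a protein that binds membrane phospholipids in the presence of calcium, had 153.7 and 125.6 CPM in lone brains, against 62.75, 23.63, 30.41 and 74.29 CPM in social rock brains. Lone males were above all 4, the log2 fold change was 1.54 ± 0.59 (SE, edgeR adjusted p = 0.97), and lone male 4 exceeded its brother by a ratio of 2.07 (95% counting interval 1.38 to 3.13). LOC101484917, hippocalcin-like protein 1, a neuronal calcium sensor, had 129.3 and 138.4 CPM in lone brains, against 47.98, 62.45, 52.13 and 90.21 CPM. It did not overlap either (1.08 ± 0.43, SE), but the ratio of lone male 4 to its brother was 1.43 with a counting interval of 0.957 to 2.15. The related visinin-like gene LOC101471140 had 836.9 and 804.7 CPM in lone brains, against 356.2, 322.4, 286.7 and 946.4 CPM, with the highest level of the 6 in the social rock male of brood 4.

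The calmodulin and calcium handling list, 13 genes of which all were tested, had 12 above 0 and 0 called, with a median log2 fold change of 0.42. Of all named genes, 82.5% were above 0, with a median of 0.40. Calmodulin passes calcium signals to kinases and phosphatases. The gene calm2 had 1132 and 1007 CPM in lone brains, against 494.6, 337.6, 375.7 and 1261 CPM, and calm3 had 551.5 and 708.9 CPM, against 407.9, 238, 299.7 and 619.1 CPM. In both, the social rock male of brood 4 was within or above the lone range, and the other 3 were lower. Lone male 4 had 0.898 times its brother's level of calm2 (counting interval 0.797 to 1.01) and 0.891 times that of calm3 (0.75 to 1.06). Without that social rock male, the log2 fold change of calm2 was 1.34, against 0.79 with it.

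Of the genes of transmitter release, none was called. In the list on synaptic vesicles, 23 of 25 genes were above 0, against 82.5% of all named genes. The median of the list was 0.40, as was that of all named genes. LOC101482480, unc-13 homolog A, which primes vesicles, had 200.1 and 212.9 CPM in lone brains, against 105.2, 43.89, 80.36 and 176.9 CPM in social rock brains. The active-zone scaffold piccolo, LOC101476438, had 224.5 and 185.2 CPM in lone brains, against 123.7, 82.71, 86.88 and 175.1 CPM. A second active-zone gene, LOC101486132 (regulating synaptic membrane exocytosis protein 1), had 200.1 and 174.6 CPM in lone brains, against 86.74, 103, 108.6 and 141.5 CPM. All 3 lay higher in both lone males than in any social rock male, by log2 fold changes of 1.02 ± 0.44, 0.80 ± 0.38 and 0.77 ± 0.43 (SE), and none passed the adjusted test. They are the 3 of 25 listed genes (12%) that did so, against 10.5% of all named genes and 7.31% of all loci. The SNARE gene snap25 had 2321 and 1711 CPM in lone brains, against 1141, 1173, 1029 and 1962 CPM, and overlapped through the male of brood 4.

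On the receiving side, again no gene was called. LOC101473063, neuronal pentraxin-1, a secreted protein that clusters AMPA receptors in mammals, had 263.5 and 210.7 CPM in lone brains, against 83.05, 84.39, 69.5 and 207 CPM in social rock brains. The lone males were just above the male of brood 4 and well above the other 3 (1.09 ± 0.47, SE). This gene belongs to the clock, cold and stress list, not to that of the receptors. Of 14 glutamate receptor and postsynaptic genes, all were above 0, against 82.5% of all named genes, and 0 were called. In 0 of the 14 did both lone males lie above every social rock male, against 7.31% of all loci. The receptor gene LOC101486280 (glutamate receptor U1) had 363.6 and 153.3 CPM in lone brains, against 120, 81.02, 165.1 and 208.7 CPM, which overlap. All 4 GABA genes were also above 0. The GABA transporter gene slc6a11 had 475.8 and 457.7 CPM in lone brains, against 284.2, 153.6, 143.3 and 574.9 CPM, with the male of brood 4 highest.

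Granins, which pack peptides into secretory granules, differed among themselves. Secretogranin II, scg2, had 275.7 and 664.2 CPM in lone brains, against 271.3, 126.6, 191.1 and 352 CPM in social rock brains. Its log2 fold change of 0.999 ± 0.40 (SE) rested on lone male 5: without that male it was 0.20, and lone male 4 had 0.783 times the level of its brother (95% counting interval 0.616 to 0.992). Secretogranin III, scg3, followed, with 307.4 and 444.9 CPM, against 238.1, 126.6, 173.8 and 327.2 CPM. Chromogranin B, chgb, did not, with 1098 and 1445 CPM in lone brains, against 1572, 1357, 1099 and 1573 CPM (-0.14, 95% interval -0.79 to 0.51). Of the 6 granule genes tested, 5 were above 0 and 0 were called.

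**Figure D4:**
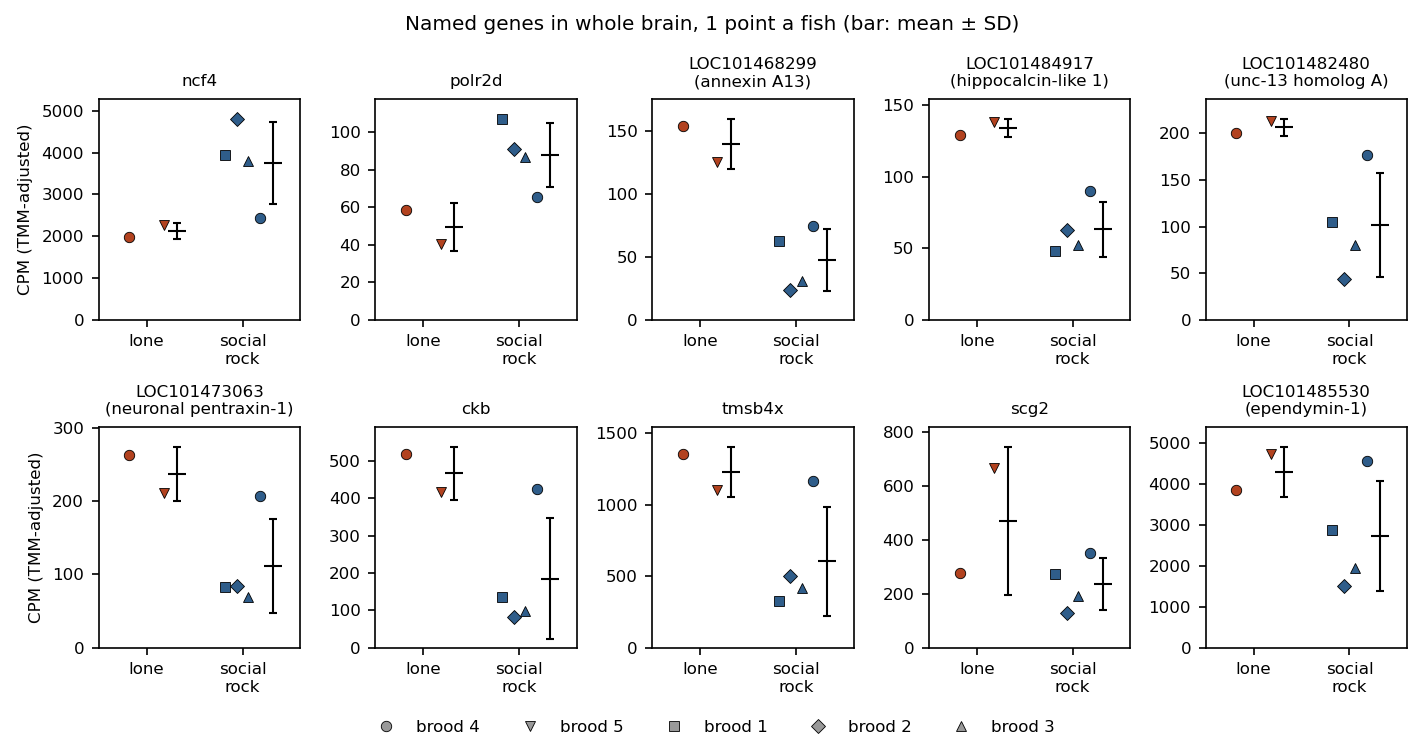
CPM (y axis) of 10 named genes in lone and social rock brains (x axis), 1 point a fish with the brood as its shape, and the mean ± SD beside each group. The first row and neuronal pentraxin-1 do not overlap between groups; in ckb, tmsb4x and ependymin-1 the circle of the social rock male of brood 4 lies among the lone males.

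The energy and cytoskeleton genes named here differed in the mean by amounts that were larger without the social rock male of brood 4. Creatine kinase B, ckb, which buffers ATP in the brain, had 517.3 and 417.2 CPM in lone brains, against 134.7, 82.71, 97.74 and 424.5 CPM in social rock brains. Its log2 fold change was 1.33 ± 0.53 (SE) and, without the male of brood 4, 2.08 (edgeR adjusted p = 0.234). Thymosin beta 4, tmsb4x, which holds actin monomers, had 1354 and 1105 CPM in lone brains, against 324.8, 503, 414.8 and 1166 CPM. Actin itself, actb, had 995.5 and 738.7 CPM, against 433.7, 335.9, 362.7 and 847.3 CPM. In each of these genes 3 social rock males were low and the male of brood 4 lay between the lone males. The mitochondrial ATP synthase beta gene LOC101477720 had 236.7 and 115 CPM in lone brains, against 64.59, 54.01, 76.02 and 192.8 CPM. All 9 mitochondrial energy genes tested and 11 of 12 neurite and cytoskeleton genes were above 0, with medians of 0.55 and 0.41 and 0 called. Of all named genes, 82.5% were above 0, with a median of 0.40.

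Among glial genes, again 0 were called. The glutamate transporter of astrocytes, slc1a2, had 2064 and 1780 CPM in lone brains, against 1831, 822, 1021 and 2660 CPM in social rock brains, so the lone males lay inside the social rock range (0.28, 95% interval -0.59 to 1.14). Clusterin, clu, a secreted chaperone, had 578.3 and 642.9 CPM, against 212.2, 270.1, 284.5 and 622.7 CPM. Of 9 astrocyte genes tested, 7 were above 0, and of 6 myelin genes 5 were. Myelin basic protein, LOC101487221, had 1098 and 1181 CPM in lone brains, against 551.8, 756.2, 536.5 and 1070 CPM, both lone males higher by a small margin over the male of brood 4. Myelin protein zero, mpz, had 1366 and 2005 CPM, against 1270, 1136, 881.8 and 2225 CPM, and its direction was not stable, since the log2 fold change of 0.29 was -0.036 without lone male 5 and -0.55 with brood as a block.

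Genes around steroid receptors, stress and the cold response gave no call. The orphan nuclear receptor gene LOC101469665 (ERR1), a regulator of mitochondrial genes in mammals, had 58.56 and 29.8 CPM in lone brains, against 7.38, 13.5, 10.86 and 28.3 CPM in social rock brains. It did not overlap by a narrow margin (1.53 ± 0.79, SE). The membrane progestin receptor gene LOC101467345 had 104.9 and 129.9 CPM, against 94.12, 42.2, 76.02 and 76.06 CPM, also without overlap. The HSP90 gene hsp90ab1, whose product folds steroid receptors, had 1266 and 1228 CPM, against 677.3, 543.5, 547.3 and 1442 CPM. All 7 genes of that list were above 0. Of the 10 clock, cold and stress genes tested, 6 were above 0 with a median log2 fold change of 0.14, or -0.53 with brood as a block. In 1 of the 10 (10%), neuronal pentraxin-1, both lone males lay above every social rock male, against 7.31% of all loci. In 2 of the 10 (20%), against 6.58% of all loci and 2.01% of named genes, both lone males lay below every social rock male, and neither passed the test. These are transcription factors: ddit3 had 92.72 and 89.41 CPM, against 193.8, 101.3, 139 and 102.6 CPM, and LOC101475680 (ATF-4) had 21.96 and 14.9 CPM, against 44.29, 28.69, 26.06 and 47.76 CPM. The cold-inducible RNA-binding gene cirbp had 883.3 and 1203 CPM, against 804.6, 469.2, 469.1 and 1183 CPM, and turned to -0.35 on the log2 scale with brood as a block. Ependymin-1, LOC101485530, a secreted glycoprotein of the fish brain's fluid, had 3865 and 4739 CPM, against 2886, 1516, 1955 and 4574 CPM, a log2 fold change of 0.65 (95% interval -0.12 to 1.43).

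A pair of named genes with large fitted folds rested on 1 lone male. LOC101469773, the homeobox gene Dlx4b, had 61 CPM in lone male 4 and 2.13 CPM in lone male 5, against 0, 5.06, 0 and 0 CPM in social rock brains. Social sand brains of broods 1 to 4 had 4.356, 120.4, 295.4 and 8.185 CPM of it, so those of broods 2 and 3 were above both lone males. LOC101474770, subunit D of the translation initiation factor eIF3, had 112.2 CPM in lone male 4 and 4.26 CPM in lone male 5, against 16.61, 5.06, 4.34 and 21.23 CPM. Without lone male 4 the log2 fold change of LOC101474770 was -1.42 in place of 2.24, and that of LOC101469773 was 0.50 in place of 4.22. With brood as a block, where lone male 4 alone is compared, the log2 fold change of LOC101469773 was 8.57.

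Over the 14 gene lists, which hold 149 named genes, 134 were tested and 115 had a log2 fold change above 0, with 0 called in any list. Of all named genes tested, 534 of 647 (82.5%) were above 0, and of all loci 53.1%. The lists thus share in the tilt of the named genes as a whole. The mean of the summed CPM was higher in lone than in social rock brains in 13 lists, all but genome maintenance. In 11 lists the highest of the 6 sums was that of the social rock male of brood 4. The sum over mitochondrial energy genes, for one, was 905.3 and 819.6 CPM in lone brains, against 431.9, 352.8, 406.2 and 1127 CPM in social rock brains. That over synaptic vesicle genes was 8772 and 7593 CPM, against 6452, 4281, 5210 and 9117 CPM. No list separated the 2 groups upward while that male was included; with it left out, the lone sums lay above the other 3 in 12 lists. The same arrangement held for genes of other cell types. The sum over blood, vessel and immune genes, of which 5 of 9 were tested, was 383.1 and 285.2 CPM in lone brains, against 262.1, 232.9, 236.7 and 428.1 CPM, and its median log2 fold change was 0.49. Its member LOC101487954, perforin-1-like, a pore-forming protein of cytotoxic lymphocytes, was at 65.88 and 85.15 CPM in lone brains, below all of 103.3, 114.8, 119.5 and 100.8 CPM in social rock brains. The part that cell composition has in these results was not tested.

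**Figure D5:**
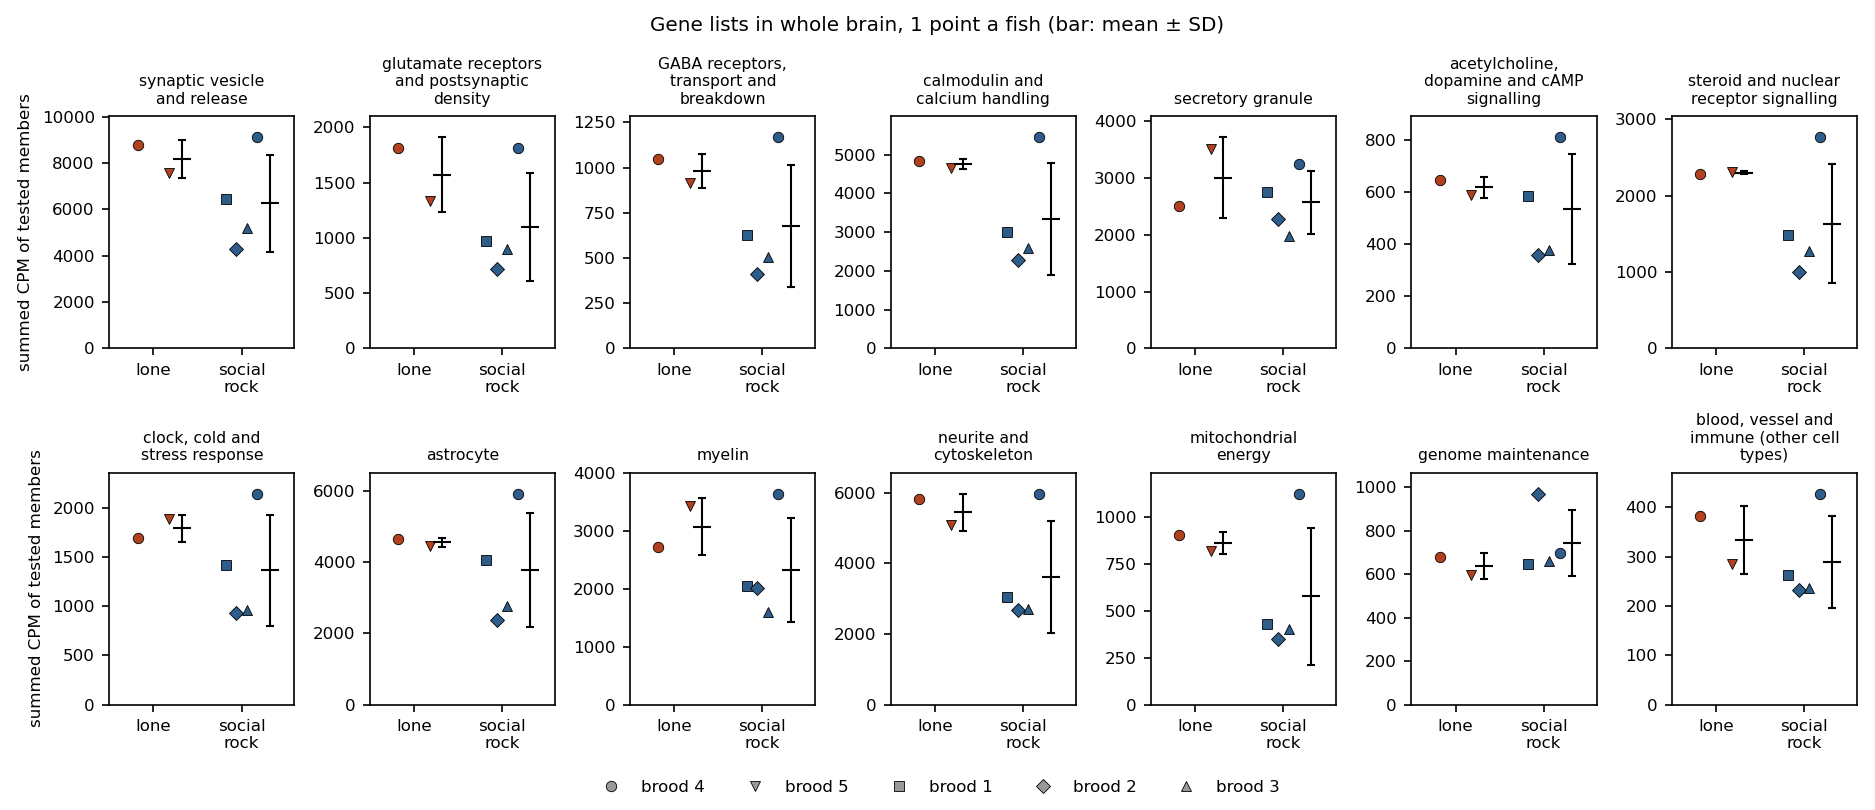
Summed CPM (y axis) of the tested members of 14 gene lists in lone and social rock brains (x axis), 1 point a fish with the brood as its shape, and the mean ± SD beside each group. The circle of the social rock male of brood 4 is highest in 11 lists, and genome maintenance is the list in which the lone mean is below the social rock mean.

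The nearest control for cross is the pair of brothers of brood 4, with 1 fish a side and no replicate check. Lone male 4 exceeded its social rock brother more than 4-fold at 65 of 7733 loci (0.841%) and was more than 4-fold lower at 42 (0.543%), 1.38% in all. Its comparisons with the social rock males of broods 1, 2 and 3 gave 3.36%, 5.97% and 4.13%, and those of lone male 5 gave 2.16% with the male of brood 4 and 2.88% to 4.72% with the other 3. Lone male 5 was thus also closest to the male of brood 4, which is no brother of it. Named genes with a counting interval clear of 1 in the direction of the groups include annexin A13, trip13, ncf4 and rfc1 (1.42, interval 1.07 to 1.88). In each of these, both lone males lay beyond all 4 social rock males. Their direction between the brothers was therefore fixed in advance and is no separate check. Genes whose groups overlapped went both ways. Among those that kept the direction were LOC101486280 (glutamate receptor U1) at 1.74 (1.36 to 2.24), snap25 at 1.18 (1.08 to 1.29) and tmsb4x at 1.16 (1.04 to 1.3). So did actb at 1.17 (1.03 to 1.34) and ckb at 1.22 (1.01 to 1.47). Among those that turned, ependymin-1 was at 0.845 (0.793 to 0.9), mpz at 0.614 (0.555 to 0.679), cirbp at 0.746 (0.655 to 0.85) and hsp90ab1 at 0.878 (0.785 to 0.982) times the brother's level.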

How the data were processed

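Whole-brain mRNA of 2 lone, 4 social rock and 4 social sand F1 males was sequenced by the authors from stranded libraries. The authors filtered reads with the NGS QC Toolkit, aligned them to MZ_UMD2a with TopHat 2.0.9, used samtools 0.19 and deposited raw counts per locus from HTSeq 0.6.1. Another tool in the submitters' processing notes is edgeR 3.6.8. Which annotation was used, whether counting used strand and what became of multiply aligned fragments is not given in the sources used here. Of 32455 loci, 812 took a name from the study's supplementary gene table, whose fold changes and p-values were not used.

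Loci kept by filterByExpr (minimum count 10) were scaled by TMM. The quasi-likelihood test of edgeR 4.0.16 (R 4.3.3) was fitted to 10 libraries in 3 groups without a block, with Benjamini-Hochberg adjustment over all loci. Levels are CPM and distances use log2 CPM with a prior count of 2. Alternatives used limma 3.58.1, DESeq2 1.42.0, other scaling, filters, samples, depth and a block. Figures used matplotlib 3.10.9. Intervals are at 95%. In the main fit, edgeR's p-values measure the spread between single fish within groups, with information shared across loci. With brood as a block, only lone male 4 informs the comparison, so those p-values do not measure a spread between lone fish.

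Brood numbers pair libraries because the series describes males of a cross as siblings. The deviations of lone male 4 correlated across genes at 0.124 with its social rock brother and 0.0174 with its social sand brother. The samples compared, the lists of genes and the rule for which genes to name were chosen with earlier results of these data known. The rule took, in each direction, the loci and the named genes of smallest p, the most abundant named genes, up to 4 members of each list, 6 fixed genes, the largest non-overlapping folds and the on-and-off loci. The examples given were chosen from these with their values in view. Alternatives without brood 4, and distances without the most abundant locus, were added after seeing the data.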

Additional observations from a re-analysis of the deposited data

Results flagged for a closer look

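Within the social rock group of 4, a single library stood far from the other 3 in 16 of the 70 measures examined. The gap to the nearest library, over the whole range, was above Dixon's critical value at 95% in these, and chance alone gives about 1 in 20 groups. In 5 of the 16 the other 3 libraries were at 0, which fixes the result, and 1 further locus was at 0 in all 4, which leaves 11 of 64 measures. The genes were chosen with their values in view, and the list sums hold some of the same genes. The rate of 1 in 20 is therefore no baseline for this count. In 10 of the 16 the library was the social rock male of brood 4 and it was the highest. This held for ckb at 424.5 CPM, LOC101471140 (visinin-like) at 946.4 CPM, LOC101473063 (neuronal pentraxin-1) at 207 CPM, snap25 at 1962 CPM, calm2 at 1261 CPM, hsp90ab1 at 1442 CPM and LOC101477720 (ATP synthase beta) at 192.8 CPM. It also held for the summed CPM of the neurite and cytoskeleton list at 5981, of the mitochondrial energy list at 1127 and of the blood, vessel and immune list at 428.1. Both lone males lay above the other 3 social rock males in all 10 of these measures. In the genome maintenance list the social rock male of brood 2 was highest, with a sum of 970.5 CPM. The other 5 measures are loci with reads in 1 social rock library only: gene3343 at 2.17 CPM and gene3344 at 13.03 CPM in brood 3, and the third and the fourth unnamed locus of the plot of near-zero loci at 3.38 and 1.69 CPM and LOC101469773 (Dlx4b) at 5.06 CPM in brood 2.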

How the results depend on the processing

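The count of called loci, 0, became 52 of 22617 without the low-count filter, 4 with 6 libraries only, 17 with the replicate block on brood, 13 without the 3 males of brood 4 (added after seeing the data) and 3 at an adjusted p under 0.1; leaving out 1 library gave 0 to 9, and the other settings kept 0. The 275 loci at an unadjusted p under 0.05 became 809 without the filter, 524 with limma-voom, 156 with the block, 69 with social rock of broods 3 and 4 only and 520 without brood 4; leaving out 1 library gave 150 to 833. The 635 loci bounded within 2-fold became 355, 422, 29, 409 and 183 without the filter, with 6 libraries, with the block, with broods 3 and 4 only and without brood 4, and 33 to 682 with 1 library left out. The mean distance of 80.63 was 41.77 over the 500 most variable loci, 11.92 over the 436 loci with at least 100 counts in each of the 6, and 100.5 with a prior count of 0.5; these use other loci or another scale by construction.

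Of 1015 alternative values for the 51 genes printed, 970 kept direction and side of the threshold, 33 became calls and 12 changed sign. Under the block the log2 fold change was 0.035 for faap100, -0.029 for scg2, -0.55 for mpz, -0.33 for slc1a2, -0.35 for cirbp and -0.15 for LOC101466337. With each library left out in turn it ran from -0.036 (lone male 5 out) to 0.56 for mpz, from -0.063 (lone male 5 out) to 0.35 for LOC101466337 (prothymosin alpha-B), from -0.38 to 0.017 (lone male 4 out) for chgb and from -1.42 (lone male 4 out) to 3.18 for LOC101474770. With all 3 males of brood 4 left out, chgb was at 0.12 and LOC101474770 at -0.98. The cause of these changes was not tested. Of 280 alternative list medians, 274 moved by less than the spread between social rock libraries. That spread includes the male of brood 4 and is wide, so a median could change sign and still count among the 274. With brood as a block, 7 lists had a median above 0, against 13 in the main fit. The glutamate receptor list, for one, went from 0.48 to -0.006. With 1 library left out of the lone group, the remaining fish is assumed to vary like the other groups. Depth and 2 fish limit the rest: few loci are bounded within 2-fold.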

Other observations

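The most abundant locus, which the files do not name here, was low in both brothers of the brood 4 dyad and not in the third brother. It took 0.0511% of the counts of the social rock male (258 counts) and 0.11% of those of the social sand male (275 counts), but 5.14% (19300 counts) in lone male 4. In the other 7 libraries it took 10.3% to 16.7%. Lone male 4 was thus between its brothers and all other males. Without this locus the mean distance from lone to social rock brains was 80.53, against 80.63 with it. It was among the loci called with brood as a block, where lone male 4 alone is compared, with a log2 fold change of 6.25.

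The most abundant named genes beside those described above overlapped between the groups. Prothymosin alpha-B, LOC101466337, a nuclear protein of chromatin, had 2301 and 3050 CPM in lone brains, against 2803, 1507, 2185 and 2951 CPM in social rock brains (log2 fold change 0.18, 95% interval -0.41 to 0.77). The phospholipase C gene LOC101475135 had 2828 and 3581 CPM in lone brains, against 4896, 4471, 3660 and 3112 CPM (-0.33, 95% interval -1.32 to 0.66). LOC101487592, the neuronal surface glycoprotein Thy-1, was low but separated the groups, with 87.84 and 59.6 CPM in lone brains, against 23.99, 30.38, 21.72 and 47.76 CPM (1.24, 95% interval -0.09 to 2.56).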
